A study of Mus musculus with 18 samples.

Results

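The cortex of mouse embryos at E13.5, in mid-gestation, was compared between animals heterozygous for Chd2 (HET, 3 libraries) and wild-type animals (WT, 3 libraries). These 6 libraries were taken by their column labels from the 18 of the series, which also holds the medial ganglionic eminence (MGE) of the same age and the adult hippocampus at postnatal day 45. All animals were of the C57BL/6 strain, total RNA was taken from dissected tissue, and libraries were made from poly(A) RNA with an NEBNext Ultra kit. Of the 24062 lines of the count table, 14757 genes had enough counts in the cortex to be tested. The labels give one age, one strain and one genotype for each group, and do not describe the Chd2 allele or say whether tissue was pooled, which sex the embryos had or whether the replicates are separate animals. P-values therefore measure only the spread between these samples.

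Chd2 encodes a chromatin remodeller of the CHD family, an enzyme that uses ATP to move nucleosomes and that has been linked to the deposition of the histone variant H3.3. At E13.5 the wall of the cortex holds dividing radial glia, which line the ventricle, intermediate progenitors, which divide once more above them, and young neurons, which leave the cycle and settle in the cortical plate. A library of whole cortex mixes these cells, so fewer cells of a type and less RNA per cell cannot be told apart.

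The libraries held 26841671 to 34604093 counts each, over 16733 to 17693 genes with a count, and the 10 most abundant genes took 3.63 to 4.71% of them. Levels below are CPM, counts relative to library size, scaled by TMM, a factor that evens out library composition. They are compared between libraries and not between genes. Over all genes HET 3 differed from the rest of its group, and the results below are given with its own values. The squared difference between 2 libraries over all genes, in units of what counting noise alone gives, was 14.84 for HET 1 and HET 2, but 100.5 for HET 1 and HET 3 and 93.59 for HET 2 and HET 3, against 16.47 to 24.42 between WT libraries. On the first principal component (54.1% of the variance) HET 3 lay at -21.03 among the WT libraries (-19.39, -1.193 and -21.8), and HET 1 and HET 2 at 34.15 and 29.27. Both groups held both sexes by Xist, which is made from the silenced X chromosome of females, at 0.999, 1284 and 1332 CPM in WT and 1.096, 1355 and 1.27 CPM in HET.

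The labelled tissue was checked against its markers. Emx1, a homeobox gene of the developing cortex, had levels of 118, 147 and 123 CPM in WT and 191, 167 and 124 CPM in HET. Neurod6, a transcription factor of young excitatory neurons, stood at 1092, 1093 and 1251 CPM in WT and 535, 494 and 1181 CPM in HET. On Emx1, HET 1 and HET 2 lay above every WT library, and on Neurod6 far below, while HET 3 lay within the WT range on Neurod6 and on Emx1. Nkx2-1, which specifies the MGE, stood between 0.384 and 1.54 CPM in the cortex libraries scaled over the whole series, and Gsx2, a factor of the ganglionic eminences, had a level of 0 in all 6.

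Chd2 itself was lower in the HET cortex. Its levels were 148, 157 and 149 CPM in WT and 130.04, 129.9 and 129 CPM in HET, so that the groups did not overlap and the 3 HET libraries, HET 3 among them, lay within 1 CPM of each other. The log2 fold change was -0.22 (SE 0.08), with an unadjusted p of 0.0207 and an adjusted p of 0.578 over all genes (edgeR's quasi-likelihood test with Benjamini-Hochberg adjustment). The gene spans chr7:73426638-73541830 on the minus strand of mm10 (GENCODE M21). Its exons overlap those of 1810026B05Rik on the same strand, so reads there cannot be told apart even by strand. They also overlap those of Gm44686 on the other strand, where reads may be mixed if the strand was not used. Without HET 3 the log2 fold change of Chd2 was -0.22 (adjusted p 0.024, edgeR). A read count does not show which allele a transcript came from.

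With edgeR, 0 of the 14757 genes passed an adjusted p of 0.05 (0.00%). The lowest adjusted p was 0.107, for Hddc3, and the next was 0.578. At an unadjusted p under 0.05 there were 741 genes higher (5.02%) and 424 lower (2.87%) in HET, while limma-voom called 0 genes and DESeq2 called 11. The 3 HET libraries all lay above the 3 WT libraries in 898 genes (6.09%) and all below in 782 (5.30%). The median log2 fold change over all genes was 0.01. The genes described first are among the 12 with the lowest p in each direction whose groups did not overlap.

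Hddc3, which encodes a hydrolase of the HD-domain family, had the lowest p of the cortex. Its levels were 34.8, 29.6 and 32.8 CPM in WT and 9.90, 9.81 and 12.8 CPM in HET, so every HET library, HET 3 included, lay far below the lowest WT library. The log2 fold change was -1.58 (SE 0.15), with an unadjusted p of 7.24e-06 (edgeR). It lies at chr7:80343104-80350547 on the plus strand of mm10, 6.80 Mb from Chd2, and an exon overlaps Man2a2 on the other strand, so reads of both genes may be mixed. In the MGE of the same age its log2 fold change was -0.72 (unadjusted p 0.0347) and in the hippocampus -0.02 (unadjusted p 0.883). By Xist, all MGE WT libraries were female and all MGE HET libraries male, so MGE values here and below cannot tell genotype from sex. The cortex effect differed from that in the hippocampus by -1.57 (adjusted p 0.135, edgeR) and from that in the MGE by -0.87 (adjusted p 0.71).

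Several of the lower genes are known from young neurons and their wiring. Sox4, a transcription factor of newborn neurons, stood at 837, 888 and 899 CPM in WT and 673, 641 and 581 CPM in HET (log2 fold change -0.47, SE 0.10). HET 3 had the lowest value of all, so this neuronal gene did not follow the split of the HET libraries seen for Neurod6. Epha3, a receptor tyrosine kinase for ephrins in axon guidance, stood at 145, 155 and 195 CPM in WT and 94.9, 84.5 and 119 CPM in HET (log2 fold change -0.73, SE 0.16). Celsr3, an atypical cadherin needed for axon tracts, stood at 159, 149 and 165 CPM in WT and 109, 111 and 129 CPM in HET (log2 fold change -0.43, SE 0.10). For both, HET 3 was the HET library nearest to WT and still below it. Grin2b, the NMDA receptor subunit of the embryonic brain, stood at 7.78, 5.83 and 9.04 CPM in WT and 2.69, 3.41 and 4.51 CPM in HET (log2 fold change -1.09, SE 0.26). On Grin2b, too, HET 3 was the HET library nearest to WT.

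The other lower genes have varied roles. Ednrb, the endothelin receptor of radial glia and neural crest, stood at 73.0, 66.7 and 77.2 CPM in WT and 48.5, 48.4 and 58.7 CPM in HET (log2 fold change -0.48, SE 0.11). Klhl24, an adaptor that directs proteins to degradation, stood at 152, 143 and 157 CPM in WT and 119, 106 and 119 CPM in HET (log2 fold change -0.40, SE 0.09). Adamtsl3, an extracellular matrix protein, stood at 6.43, 7.44 and 12.6 CPM in WT and 3.39, 3.38 and 2.95 CPM in HET (log2 fold change -1.44, SE 0.28), with most of its spread in WT 3. Kcnn3, a calcium-activated potassium channel, Dgki, a diacylglycerol kinase, and Usp35, a deubiquitinase, had log2 fold changes of -0.76 (SE 0.18), -0.74 (SE 0.18) and -0.75 (SE 0.19). In all 3 of these, HET 3 lay between the other HET libraries and WT. Exons of Sox4 overlap those annotated for Gm26735, and reads may be shared there too.

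Among the higher genes, Myo7a, an unconventional myosin known from sensory hair cells, stood at 15.6, 12.1 and 12.998 CPM in WT and 32.6, 31.5 and 24.8 CPM in HET (log2 fold change 1.13, SE 0.16, unadjusted p 0.000118). Its log2 fold change in the MGE, where genotype and sex coincide, was 0.69 (unadjusted p 0.00143) and in the hippocampus 0.04 (0.712). Tdp2, an enzyme that frees DNA ends from trapped topoisomerase, stood at 33.0, 32.8 and 30.8 CPM in WT and 63.1, 56.9 and 48.7 CPM in HET (log2 fold change 0.80, SE 0.12, unadjusted p 0.000162). HET 3 was the lowest of the HET libraries on both genes, yet above every WT library.

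A pair of replication-dependent histone genes, which serve to pack new DNA, stood higher in each HET library. Hist1h2ae stood at 2.34, 2.19 and 2.37 CPM in WT and 4.45, 5.69 and 4.88 CPM in HET (log2 fold change 1.12, SE 0.21) and Hist1h3c at 3.56, 4.23 and 5.48 CPM in WT and 11.3, 8.17 and 9.19 CPM in HET (log2 fold change 1.11, SE 0.22). These mRNAs mostly lack a poly(A) tail and their genes are near-identical copies of each other, so how reads were shared among copies is uncertain. Of the 66 replication histone genes listed, 44 were tested, with 29 above and 15 below zero and a median of 0.17. That median was -0.04 without HET 2 and -0.0047 without WT 1. In that family 6 genes stood higher and 5 lower in every HET library, against 6.09% and 5.30% of all genes.

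Other higher genes were Alg8, a glucosyltransferase of protein glycosylation, at 19.1, 18.8 and 19.8 CPM in WT and 29.96, 30.7 and 25.4 CPM in HET (log2 fold change 0.58, SE 0.12), and Gstp1, a glutathione transferase, at 44.6, 46.0 and 41.1 CPM in WT and 56.5, 63.0 and 56.2 CPM in HET (log2 fold change 0.42, SE 0.10). The aminoacyl-tRNA synthetases Cars and Mars, which charge tRNA with cysteine and methionine, had log2 fold changes of 0.45 (SE 0.11) and 0.44 (SE 0.11), though exons of Mars overlap those of Ddit3. Ola1, an ATPase of the Obg family, had 0.32 (SE 0.08) and Pgap2, which matures lipid anchors of proteins, 0.41 (SE 0.10). Hapln1, a link protein of the extracellular matrix, stood at 2.15, 0.852 and 1.52 CPM in WT and 5.05, 7.50 and 3.03 CPM in HET (log2 fold change 1.78, SE 0.44). Optc, a small proteoglycan, stood at 4.25, 5.11 and 3.33 CPM in WT and 16.9, 15.4 and 6.12 CPM in HET (log2 fold change 1.59, SE 0.38), where HET 3 was far closer to WT than HET 1 and HET 2 were.

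**Figure D1:**
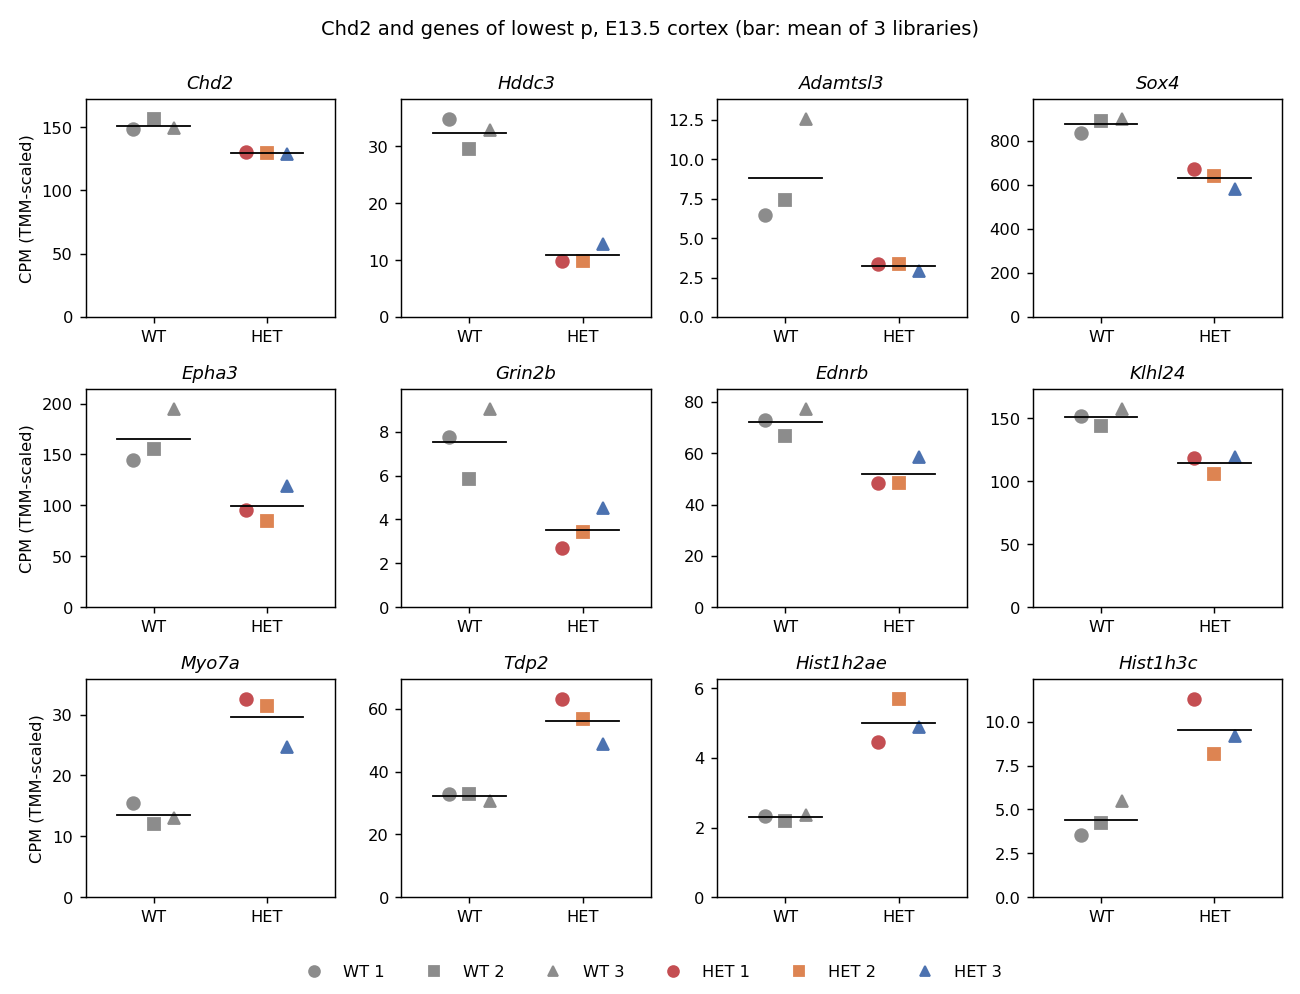
Levels of Chd2 and of 11 genes of lowest p in each E13.5 cortex library, in TMM-scaled CPM on a linear axis from 0, with the 3 WT libraries at the left and the 3 HET libraries at the right of each panel and the mean of each group as a bar. The groups do not overlap in any panel, and HET 3 (blue triangle) is the lowest library for Sox4 and the HET library nearest to WT for Myo7a and Tdp2.

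Beyond these genes, the result for whole pathways turned on which HET libraries entered the comparison. Each of the 6 libraries was left out in turn. The same test called 0 genes without HET 1, HET 2, WT 2 or WT 3 and 1 gene, Eno1b, without WT 1, but without HET 3 it called 2654 genes higher (17.7%) and 1944 lower (13%) of 14961. A call without HET 3 compares only HET 1 and HET 2 with WT, and it is given below beside the values of all 6 libraries. That HET 3 differs from HET 1 and HET 2 in progenitor and neuron genes was known beforehand. Calls without it on such genes therefore follow in part from that choice. They describe HET 1 and HET 2 and are not a test of genotype. As a background for single libraries, HET 1 lay above the highest WT library in 38.5% of genes and below the lowest in 34.8%, HET 2 in 38.4% and 34.5%, and HET 3 in 27.0% and 25.1%.

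Genes that copy DNA stood higher in HET 1 and HET 2 and near WT in HET 3. Of 57 DNA replication genes, 55 had a log2 fold change above zero, the median was 0.41 (0.01 over all genes), and 32 had an unadjusted p under 0.05. Above the highest WT library lay 53 of them in HET 1, 54 in HET 2 and 16 in HET 3, against 38.5%, 38.4% and 27.0% of all genes. In HET 3 their share was thus near that of all genes. Their mean log2 level relative to WT was -0.06, 0.07 and -0.01 in WT and 0.51, 0.56 and 0.01 in HET. Without HET 3 the test called 48 higher and 0 lower, against 17.7% and 13% of all genes.

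Members whose groups did not overlap also in HET 3 numbered 13, and 0 were lower in this way, against 6.09% and 5.30% of all genes. Nearly all members lay above WT in HET 1 and HET 2, so this excess came from those 2 libraries. HET 3 lay above WT about as often as for all genes. They included Pcna, the sliding clamp of DNA polymerase, at 453, 443 and 484 CPM in WT and 575, 587 and 513 CPM in HET (log2 fold change 0.28, SE 0.10). Gmnn, which blocks a second round of origin licensing, stood at 36.6, 41.7 and 41.5 CPM in WT and 59.5, 60.5 and 46.2 CPM in HET (log2 fold change 0.47, SE 0.13). Pold2, a subunit of DNA polymerase delta, stood at 48.0, 60.2 and 49.0 CPM in WT and 76.6, 85.7 and 61.2 CPM in HET (log2 fold change 0.51, SE 0.15). In these 3 genes HET 3 was above the highest WT library by a smaller step than HET 1 and HET 2. Rrm1, a subunit of the enzyme that makes deoxynucleotides, showed the more frequent pattern, with 287, 307 and 320.5 CPM in WT and 459, 462 and 313 CPM in HET, where HET 3 lay within the WT range.

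Regulators of the entry into S phase were also higher in HET 1 and HET 2. Of 31, 25 were above zero (median 0.33), and 24, 23 and 2 lay above WT in HET 1, HET 2 and HET 3. In HET 3, 16 lay below the lowest WT library, against 25.1% of all genes. Ccnd1, the cyclin that drives the early G1 phase, stood at 63.8, 54.0 and 64.7 CPM in WT and 121, 117 and 62.0 CPM in HET. Ccnd2, the D-type cyclin of radial glia, stood at 985, 1052 and 860.0 CPM in WT and 1668, 1615 and 954 CPM in HET, and Ccne1, which acts at the start of S phase, at 17.6, 23.2 and 18.5 CPM in WT and 36.7, 44.1 and 21.03 CPM in HET. Their log2 fold changes without HET 3 were 0.97, 0.77 and 1.03. The kinase partner Cdk4 showed little of this, with 969, 1015 and 1058 CPM in WT and 957, 971 and 1079 CPM in HET. Cdkn1b, an inhibitor of cyclin-dependent kinases that accumulates as cells leave the cycle, went the other way in all 3 HET libraries, with 208, 207 and 208 CPM in WT and 179, 169 and 184 CPM in HET (log2 fold change -0.23, SE 0.08).

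Genes of mitosis were above zero in 59 of 60 (median 0.31), and above the WT range in 56 in HET 1, 58 in HET 2 and 4 in HET 3. Of the same genes, 21 lay below the lowest WT library in HET 3. Mki67, the proliferation antigen, stood at 555, 571 and 566 CPM in WT and 761, 772 and 476 CPM in HET, and Top2a, the topoisomerase that untangles chromosomes, at 671, 730.0 and 729 CPM in WT and 961, 981 and 613 CPM in HET. HET 3 was thus the lowest of the 6 libraries on both, while HET 1 and HET 2 were the highest. Ube2c, which loads ubiquitin for the anaphase-promoting complex, stood at 101, 130.4 and 123 CPM in WT and 233, 206 and 121 CPM in HET, with HET 3 within WT. Cenph and Cenpk, inner kinetochore proteins, stood above WT in every HET library, with log2 fold changes of 0.39 (SE 0.13) and 0.37 (SE 0.11). They were the only 2 of the 60 to do so, against 6.09% of all genes.

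The stretches before the start of some of these genes are shown because members of the 3 cell cycle lists stood high together in HET 1 and HET 2. Promoter sequences from RefSeq (GRCm38.p6) were given for 10952 of the 14757 genes, as 13989 promoters, and the 250 bases before each start were searched on both strands. The motifs were the E2F element (TTTCCCGC or TTTGGCGC), the cell cycle homology region CHR (TTTGAA or TTCGAA) and the CCAAT box (CCAAT). A match is only a run of letters and was not tied to binding. The following stretches of 150 bases before the start, 5′ to 3′ on the gene's strand with matches in capitals, hold an E2F or CHR match and no annotated exon. They are Mcm6 (chr1:128359706-128359855, minus strand), a subunit of the replicative helicase, E2f3 (chr13:29986064-29986213, minus strand), an E2F transcription factor, and the mitotic genes Ckap2l (chr2:129297213-129297362, minus strand) and Kif11 (chr19:37376232-37376381, plus strand), a spindle protein and a spindle motor. These 4 were chosen after their values were seen.
Mcm6: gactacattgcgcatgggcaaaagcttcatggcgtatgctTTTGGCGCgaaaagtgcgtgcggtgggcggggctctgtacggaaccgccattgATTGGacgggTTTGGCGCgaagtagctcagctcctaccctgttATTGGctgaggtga
E2f3: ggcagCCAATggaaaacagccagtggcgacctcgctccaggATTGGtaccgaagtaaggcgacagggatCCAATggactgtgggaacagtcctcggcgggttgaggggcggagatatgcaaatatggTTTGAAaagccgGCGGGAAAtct
Ckap2l: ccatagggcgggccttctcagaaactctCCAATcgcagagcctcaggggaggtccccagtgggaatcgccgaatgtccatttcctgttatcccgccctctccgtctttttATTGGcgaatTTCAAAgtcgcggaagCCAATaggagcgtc
Kif11: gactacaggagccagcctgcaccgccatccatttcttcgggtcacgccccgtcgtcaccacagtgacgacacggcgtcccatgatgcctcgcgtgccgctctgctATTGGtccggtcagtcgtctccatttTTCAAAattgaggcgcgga

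The Mcm6 stretch holds 2 E2F matches and 2 CCAAT boxes, and that of E2f3 holds 1 E2F match, 1 CHR and 3 CCAAT boxes. Ckap2l holds 1 CHR and 3 CCAAT boxes and Kif11 1 of each. Over the lists, an E2F match was found in 12.3% of 57 replication promoters, 16.1% of 31 promoters of S-phase entry genes and 2.25% of all promoters. The CHR was found in 42.9% of 56 mitosis promoters and 11.9% of all, and a CCAAT box in 76.8% and 34.8%. Young projection neuron, deep layer and receptor lists, lower in HET 1 and HET 2, had the CHR in 15.2%, 23.5% and 10.3% of promoters. They had a CCAAT box in 45.5%, 23.5% and 37.9% and an E2F match in 0. These shares depend on which genes were listed and not on levels in HET. Mcm6 stood at 169.9, 183 and 161 CPM in WT and 283, 267 and 175 CPM in HET, and E2f3 at 49.5, 61.5 and 51.2 CPM in WT and 102, 97.7 and 48.0 CPM in HET. Ckap2l stood at 107, 114 and 118 CPM in WT and 134, 144 and 108 CPM in HET, and Kif11 at 181, 235 and 222 CPM in WT and 287, 321 and 182 CPM in HET. HET 1 and HET 2 exceeded WT on all 4, and HET 3 lay within or below the WT range.

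DNA repair genes, many of which are used in S phase, were above zero in 41 of 43 (median 0.31, 11 with an unadjusted p under 0.05). They lay above WT in 38, 35 and 7 cases in HET 1, HET 2 and HET 3, and 20 lay below WT in HET 3. Besides Tdp2, the partners Xrcc3 and Rad51c of homologous recombination stood above WT in all 3 HET libraries. Of the 43 genes, 4 did so, against 6.09% of all genes. Xrcc3 was at 10.5, 12.9 and 11.1 CPM in WT and 22.3, 19.1 and 13.7 CPM in HET (log2 fold change 0.67, SE 0.20), and Rad51c at 11.6, 11.7 and 12.9 CPM in WT and 20.6, 18.8 and 13.49 CPM in HET (log2 fold change 0.55, SE 0.18). Parp1, a sensor of DNA breaks, stood at 238, 276 and 246 CPM in WT and 405, 408 and 253 CPM in HET, with HET 3 inside WT.

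Targets of p53 and genes of cell death gave no common direction, with 17 above and 13 below zero and a median of 0.07, which was -0.02 without HET 1 and -0.01 without HET 2. Trp53inp1, a target in stress and autophagy, stood below WT in all 3 HET libraries, at 179, 170.0 and 185 CPM in WT and 125, 109 and 159 CPM in HET (log2 fold change -0.44, SE 0.14). So did Sesn1, a sestrin that restrains growth signalling, at 92.7, 90.8 and 103 CPM in WT and 60.6, 56.1 and 87.6 CPM in HET (log2 fold change -0.49, SE 0.17). Sesn2, the relative of Sesn1 induced by stress, stood above it, at 6.87, 6.49 and 4.78 CPM in WT and 10.1, 11.4 and 7.08 CPM in HET (log2 fold change 0.66, SE 0.23).

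Markers of radial glia did not move as one group. Of 30, 19 were above and 11 below zero (median 0.09, -7.98e-04 without HET 2). Without HET 3 the test called 12 higher and 9 lower, against 17.7% and 13% of all genes. Nes, an intermediate filament of progenitors, stood at 484, 510.2 and 390.5 CPM in WT and 748, 606 and 403 CPM in HET. Sox2, a transcription factor of neural stem cells, named after its values were seen, stood at 148, 183 and 140.0 CPM in WT and 264, 219 and 119 CPM in HET. Hes5, a Notch target of radial glia likewise chosen, stood at 53.8, 65.5 and 48.4 CPM in WT and 114, 91.7 and 49.98 CPM in HET. Other members stood lower in HET 1 and HET 2. Fabp7, a fatty acid binding protein, stood at 592, 521 and 523 CPM in WT and 353, 293 and 657 CPM in HET, and Pdpn, a membrane glycoprotein, at 53.2, 52.8 and 59.0 CPM in WT and 26.9, 22.7 and 44.1 CPM in HET (log2 fold change -0.81, SE 0.23). Ptprz1, a receptor phosphatase chosen after its values were seen, stood at 260.3, 236 and 255 CPM in WT and 140.2, 145 and 234 CPM in HET (log2 fold change -0.53, SE 0.19). Vim, the filament of all radial glia, differed little, with 1391, 1469 and 1194 CPM in WT and 1355, 1444 and 1377 CPM in HET. Thus HET 1 and HET 2 exceeded WT on Nes, Sox2 and Hes5 and stood below it on Fabp7, Pdpn and Ptprz1. Phgdh, the first enzyme of serine synthesis, stood above WT in all 3 HET libraries, at 219, 215 and 190.3 CPM in WT and 263, 269 and 230.0 CPM in HET (log2 fold change 0.29, SE 0.10).

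The Notch pathway, which keeps radial glia from becoming neurons, was higher in HET 1 and HET 2. Of 30 genes, 28 were above zero (median 0.20), 23 and 24 lay above WT in HET 1 and HET 2, and 2 in HET 3, where 12 lay below WT. The receptor Notch1 stood at 223, 240.5 and 205 CPM in WT and 309, 269 and 173 CPM in HET, and Rbpj, the DNA-binding partner of its cleaved form, at 162, 172 and 165 CPM in WT and 195, 191 and 156 CPM in HET. Among the repressors that Notch induces, Hey1 stood at 59.7, 78.8 and 61.8 CPM in WT and 123, 123 and 67.5 CPM in HET and Hey2 at 11.2, 10.97 and 10.04 CPM in WT and 20.4, 26.6 and 10.3 CPM in HET. Heyl, the third of that family, exceeded WT in all 3 HET libraries, at 9.24, 8.19 and 5.41 CPM in WT and 13.45, 12.7 and 9.50 CPM in HET (log2 fold change 0.64, SE 0.24). Of the 30 genes, 2 did so, near the 6.09% of all genes. Hes6, which opposes Notch in neuron precursors, stood at 169.7, 197 and 184 CPM in WT and 179.7, 185 and 181 CPM in HET.

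Intermediate progenitor genes showed little difference as a group (11 above and 13 below zero, median -0.02, 0.05 without WT 2), and 5 were higher and 1 lower without HET 3, against 17.7% and 13% of all genes. Eomes, their defining transcription factor, stood at 351, 416 and 346 CPM in WT and 354, 349 and 341 CPM in HET, so all HET libraries lay within or just below the WT range. Insm1, a zinc finger factor that promotes their birth, stood at 188, 249 and 249 CPM in WT and 189.8, 145 and 161 CPM in HET (log2 fold change -0.47, SE 0.15). Neurod4, a proneural factor, stood at 17.5, 17.4 and 18.7 CPM in WT and 8.20, 7.75 and 15.4 CPM in HET (log2 fold change -0.77, SE 0.26), below WT in all 3 HET libraries.

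Transcription factors that set cortical areas were higher in HET 1 and HET 2, with 14 of 19 above zero (median 0.32). Emx2, which specifies the caudal cortex, stood at 66.3, 91.0 and 58.2 CPM in WT and 129.6, 135 and 66.3 CPM in HET. Lhx2, a selector of cortical identity, stood at 531, 693 and 475 CPM in WT and 929.7, 954 and 518 CPM in HET. Bhlhe22, an area factor of postmitotic neurons, stood at 212, 223 and 184 CPM in WT and 172, 167 and 189 CPM in HET. HET 3 lay within the WT range for Emx2 (log2 fold change 0.62, SE 0.28). In a list of genes whose levels mark embryonic age, 10 of 15 were above zero (median 0.09, 0.01 without HET 1 and 0.30 without HET 3). Their mean log2 level relative to WT was 0.09, -0.03 and -0.06 in WT and 0.50, 0.48 and -0.08 in HET. At an unadjusted p under 0.05 (edgeR), 7 were higher and 1 lower, against 5.02% and 2.87% of all genes. Hmga2, a chromatin protein of early progenitors, stood at 17.7, 17.3 and 26.4 CPM in WT and 55.9, 50.8 and 20.6 CPM in HET. Lin28b, which blocks let-7 maturation, stood at 1.94, 1.28 and 1.37 CPM in WT and 2.42, 3.16 and 2.43 CPM in HET (log2 fold change 0.80, SE 0.29), above WT in all 3 HET libraries. Nfib, a factor that appears as development proceeds, stood at 799, 809 and 837 CPM in WT and 779, 745 and 881 CPM in HET, and its relative Nfix at 623, 767 and 539.7 CPM in WT and 649, 576 and 545 CPM in HET. Neither separated the groups. The age difference between embryos of the same nominal day was not given in the labels, and its part in these values was not tested.

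**Figure D2:**
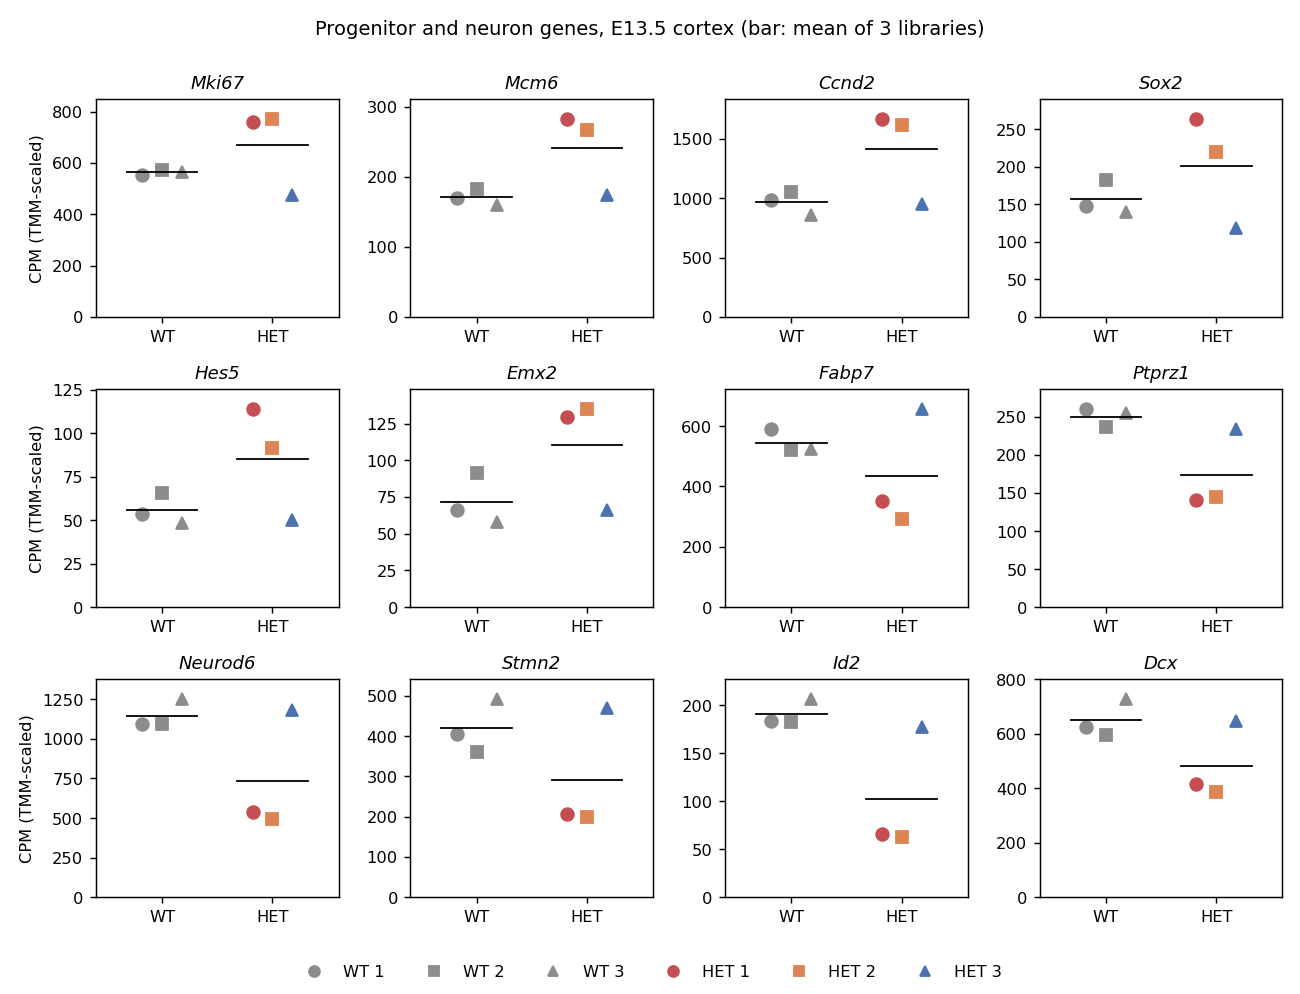
Levels of 8 progenitor genes (upper rows) and 4 neuron genes (bottom row) in each E13.5 cortex library, in TMM-scaled CPM on a linear axis from 0, with group means as bars. HET 1 and HET 2 (red circle, orange square) sit together outside the 3 WT libraries in each panel, while HET 3 (blue triangle) sits nearer to the WT libraries.

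Genes of young projection neurons were lower in HET 1 and HET 2. Of 32, 29 were below zero (median -0.23), and 26, 28 and 5 lay below the lowest WT library in HET 1, HET 2 and HET 3. Without HET 3 the test called 22 lower and 1 higher, against 13% and 17.7% of all genes. In that fit Neurod6 had a log2 fold change of -1.15. Tubb3, the neuronal tubulin, stood at 1139.7, 1182 and 1241 CPM in WT and 915, 907 and 1308 CPM in HET, and Stmn1, which takes tubulin apart, at 1388, 1612 and 1668 CPM in WT and 1492, 1369 and 1595 CPM in HET. On Tubb3, HET 3 was the highest of the 6 libraries. Stmn2, a tubulin-binding protein of growing axons chosen after its values were seen, stood at 405, 362 and 492 CPM in WT and 205, 199.7 and 471 CPM in HET, with HET 3 within WT. Dcx, a microtubule protein of migrating neurons chosen in the same way, stood at 626, 596 and 727 CPM in WT and 416, 386 and 649 CPM in HET, again with HET 3 within WT.

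In all 3 HET libraries, 4 members stood below WT (5.30% of all genes did), namely Sox4, Syt4, Id2 and Cdk5r1, the last 2 named after their values were seen. Syt4, a vesicle protein, stood at 72.8, 70.0 and 72.6 CPM in WT and 32.5, 46.6 and 63.1 CPM in HET (log2 fold change -0.60, SE 0.21). Cdk5r1, the activator of the neuronal kinase Cdk5, stood at 238, 252 and 268 CPM in WT and 169.6, 184 and 235 CPM in HET (log2 fold change -0.37, SE 0.13). Id2, an inhibitor of helix-loop-helix factors, was far lower in HET 1 and HET 2 than in HET 3, at 184, 182 and 206 CPM in WT and 66.0, 62.8 and 178 CPM in HET (log2 fold change -0.90, SE 0.38). Against the list's direction, the neurofilament gene Nefl stood above WT in all 3, at 6.50, 4.78 and 3.85 CPM in WT and 8.74, 9.70 and 7.48 CPM in HET (log2 fold change 0.77, SE 0.23).

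Genes of the cortical layers lay more often below zero than above it, and none was called over the 6 libraries. Of 21 deep layer and subplate genes, 15 were below zero (median -0.13). Without HET 3 the test called 2 higher and 7 lower, against 17.7% and 13% of all genes. Tbr1, which specifies corticothalamic neurons, stood at 247, 265 and 355 CPM in WT and 221, 249 and 277 CPM in HET. Bcl11b, which specifies neurons that project out of the cortex, stood at 228, 234 and 333 CPM in WT and 195, 173 and 226 CPM in HET (log2 fold change -0.42, SE 0.17), and Sox5, which times their birth, at 217, 219 and 286 CPM in WT and 147, 131 and 205 CPM in HET (log2 fold change -0.58, SE 0.19). Both lay below WT in all 3 HET libraries, though the step from WT 1 to HET 3 was small. Of 15 upper layer genes, 12 were below zero (median -0.44). Without HET 3, 2 of these were called higher and 3 lower, against 17.7% and 13% of all genes. Pou3f1, a POU factor, stood at 16.3, 21.4 and 34.3 CPM in WT and 13.8, 8.03 and 16.1 CPM in HET (log2 fold change -0.92, SE 0.33), and WT 3 held the highest value by a wide margin. Plxnd1, a semaphorin receptor, stood higher in all HET libraries, at 104, 107 and 107 CPM in WT and 124, 155 and 122 CPM in HET (log2 fold change 0.34, SE 0.11).

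Neurotransmitter receptor genes were below zero in 28 of 33 (median -0.38), and 22 lay below WT in HET 1, 25 in HET 2 and 5 in HET 3. Gria2, the AMPA receptor subunit that limits calcium entry, stood at 370.5, 324 and 391 CPM in WT and 231, 205 and 299 CPM in HET (log2 fold change -0.56, SE 0.15), below WT in all 3 HET libraries. Genes of vesicle release were below zero in 26 of 31 (median -0.23), with Rab3c, a vesicle GTPase, at 82.0, 76.8 and 105 CPM in WT and 36.9, 37.4 and 80.1 CPM in HET and Bsn, an active zone scaffold, at 56.2, 46.4 and 58.4 CPM in WT and 40.7, 42.6 and 45.1 CPM in HET. Bsn lay below WT in all 3 HET libraries (log2 fold change -0.33, SE 0.11).

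Among voltage-gated channels, 28 of 35 were below zero (median -0.18), 8 had an unadjusted p under 0.05 and 8 lay below WT in every HET library, against 5.30% of all genes. The calcium channel Cacna1e stood at 69.6, 48.5 and 65.8 CPM in WT and 35.7, 33.1 and 47.9 CPM in HET (log2 fold change -0.66, SE 0.18), and Cacna1i, of the T type, at 4.90, 5.40 and 5.70 CPM in WT and 2.86, 2.88 and 4.04 CPM in HET (log2 fold change -0.71, SE 0.22). On both, HET 3 lay below WT and above the other HET libraries. Axon guidance genes had 22 of 39 below zero (median -0.06), so the list had no clear direction, and 5 below WT in every HET library, against 5.30% of all genes. These included the semaphorin receptor Nrp1, at 137, 138 and 153 CPM in WT and 96.7, 98.6 and 125 CPM in HET (log2 fold change -0.42, SE 0.12), and its ligand gene Sema3c, at 42.1, 36.1 and 35.2 CPM in WT and 19.9, 22.7 and 33.3 CPM in HET (log2 fold change -0.58, SE 0.20).

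RNA-binding proteins that switch splicing as neurons form were also examined. Ptbp1, the splicing repressor of progenitors, stood at 281, 308 and 267 CPM in WT and 388, 447 and 267 CPM in HET, and Ptbp2, which takes over in young neurons, at 449.8, 448 and 487 CPM in WT and 472, 439.6 and 432 CPM in HET. Srrm4, the activator of neuronal microexons, stood at 134, 137 and 141 CPM in WT and 119, 114 and 110.2 CPM in HET (log2 fold change -0.27, SE 0.08), below WT in all 3 HET libraries and lowest in HET 3. Elavl2, an RNA stabiliser of neurons, stood at 345, 349 and 355 CPM in WT and 248, 223 and 316 CPM in HET (log2 fold change -0.42, SE 0.13), and Elavl1, its ubiquitous relative, stood higher, at 112, 125 and 119.9 CPM in WT and 156, 153 and 126 CPM in HET (log2 fold change 0.28, SE 0.11).

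**Figure D3:**
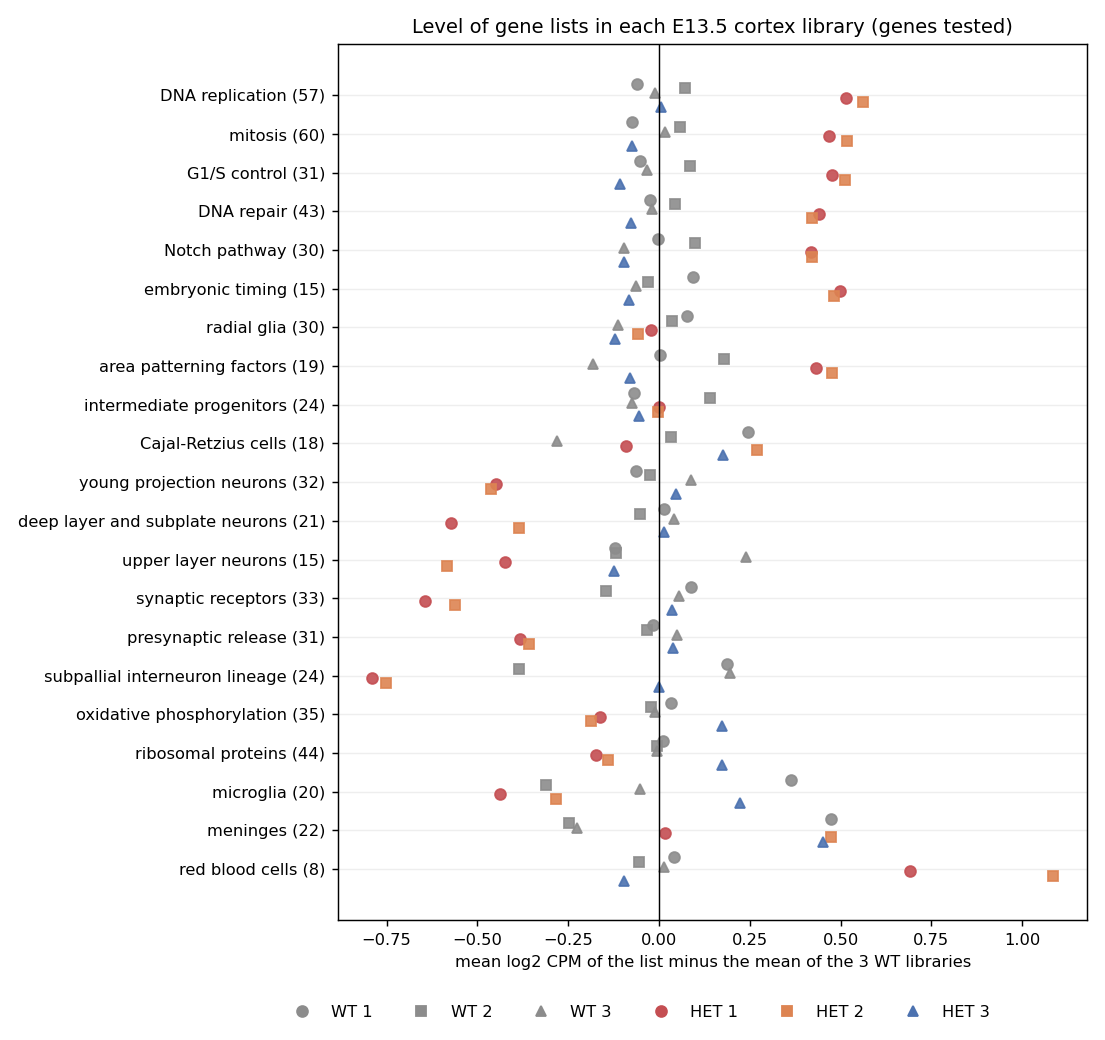
Mean log2 level of 21 gene lists in each E13.5 cortex library, relative to the mean of the 3 WT libraries (x axis, log2 CPM), with the number of genes tested in brackets and 1 symbol per library. HET 1 and HET 2 lie to the right for cell cycle, repair, Notch and red blood cell genes and to the left for neuron and synapse genes, and HET 3 lies with WT for most lists but to the right for ribosomal protein and oxidative phosphorylation genes.

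Chromatin regulators were described because Chd2 is one of them. Of the 10 CHD genes, Chd9 joined Chd2 below WT, at 112, 108 and 114 CPM in WT and 102, 86.2 and 87.1 CPM in HET (log2 fold change -0.28, SE 0.10), and so did Chd3, by a smaller step, at 659, 696 and 677 CPM in WT and 618, 630.1 and 639 CPM in HET (log2 fold change -0.11, SE 0.08). Chd4, the remodeller of the NuRD complex, stood at 432, 508 and 435 CPM in WT and 621, 614 and 420.5 CPM in HET, and Chd8, a gene linked to autism, at 194, 176 and 182 CPM in WT and 204, 213 and 183 CPM in HET. Chd1l, which acts in DNA repair, stood at 16.3, 18.5 and 16.4 CPM in WT and 23.9, 26.9 and 18.2 CPM in HET (log2 fold change 0.43, SE 0.16). Of 25 BAF complex genes, 16 were above zero (median 0.08, -0.01 without HET 1). The core subunit Smarcb1 stood at 108, 122 and 115 CPM in WT and 150.04, 152 and 129 CPM in HET (log2 fold change 0.32, SE 0.10), above WT in all HET libraries, and Dpf3, a subunit of neuronal complexes, below it, at 7.84, 6.29 and 9.85 CPM in WT and 3.29, 3.09 and 6.04 CPM in HET (log2 fold change -0.94, SE 0.31).

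Genes for histone variant H3.3 and its chaperones were above zero in 12 of 15 (median 0.17). H3f3a, which encodes H3.3, stood at 1496, 1513 and 1573 CPM in WT and 1428, 1388 and 1686 CPM in HET (log2 fold change -0.03, SE 0.11). H3f3b, which encodes the same protein, stood at 1174, 1292 and 1326 CPM in WT and 1065, 1048 and 1229.5 CPM in HET (log2 fold change -0.18, SE 0.11). The groups overlapped on both. Polycomb and DNA methylation genes were above zero in 22 of 30 (median 0.13). Dnmt1, which copies methylation onto new DNA, stood at 201, 254 and 212 CPM in WT and 369.9, 421 and 209.8 CPM in HET, and Ezh2, the methyltransferase of Polycomb, at 208, 241 and 221 CPM in WT and 290.4, 269 and 224 CPM in HET. Cbx2, a Polycomb reader, stood at 59.8, 68.0 and 64.0 CPM in WT and 133, 125 and 58.4 CPM in HET, more than in any WT library in HET 1 and HET 2 and less than in any in HET 3.

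Signalling at the edges of the cortex was uneven between WT libraries. Genes of the cortical hem, a source of Wnt and BMP at the medial edge, had 14 of 19 above zero (median 0.19), with mean levels of 0.63, -0.42 and -0.20 in WT and 0.28, 0.53 and 0.11 in HET. Of these 6 libraries WT 1 had the most hem RNA, and the median was 0.51 without WT 1, 0.02 without WT 2 and 0.03 without WT 3. Wnt8b, a ligand made by the hem, stood at 22.1, 14.7 and 9.55 CPM in WT and 42.0, 40.9 and 19.2 CPM in HET (log2 fold change 1.13, SE 0.37), and Lef1, which reads Wnt signals, at 25.2, 34.5 and 18.3 CPM in WT and 56.1, 47.6 and 22.9 CPM in HET. Cajal-Retzius genes, of early neurons that secrete reelin, had 14 of 18 above zero (median 0.23), and 4 were above WT in all 3 HET libraries (6.09% of all genes were). Among those were Trp73, at 29.8, 26.2 and 19.8 CPM in WT and 30.3, 39.2 and 33.6 CPM in HET (log2 fold change 0.44, SE 0.17), and Ebf2, at 5.15, 5.83 and 4.89 CPM in WT and 14.6, 19.3 and 5.89 CPM in HET (log2 fold change 1.32, SE 0.39). Reln itself stood at 273, 283 and 221 CPM in WT and 239, 341 and 345 CPM in HET. Genes of the antihem and of rostral signalling, on the other sides of the cortex, had 11 of 16 below zero (median -0.20).

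In the Sonic hedgehog pathway, Ptch1, the receptor that hedgehog induces, stood below WT in all 3 HET libraries, at 11.4, 8.42 and 10.6 CPM in WT and 5.98, 5.97 and 7.54 CPM in HET (log2 fold change -0.64, SE 0.19). The transducer Smo stood at 120.0, 121 and 104 CPM in WT and 199, 175 and 104 CPM in HET, and the transcription factor Gli3 at 106, 112 and 101 CPM in WT and 184, 182 and 96.1 CPM in HET. Of the 11 genes tested, 9 were above zero (median 0.29), so Ptch1 went against its list. Genes listed as Wnt targets were above zero in 15 of 17 (median 0.44), with Nkd1, a feedback inhibitor, at 51.8, 37.8 and 32.3 CPM in WT and 63.2, 61.4 and 42.2 CPM in HET. Ctnnb1, which encodes beta-catenin and was in that list, went against it. It stood below WT in all 3 HET libraries, at 1849, 1899 and 1894 CPM in WT and 1779, 1643 and 1744 CPM in HET.

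On ribosomal protein and respiratory chain genes it was HET 3 that stood highest. Of 44 ribosomal protein genes, 41 lay above the highest WT library in HET 3 (27.0% of all genes did), while 39 lay below the lowest in HET 1 and 37 in HET 2. Rpl4, of the large subunit, stood at 1710.0, 1747 and 1774 CPM in WT and 1537, 1543 and 1941 CPM in HET, and Rpsa, of the small subunit, at 2310.5, 2266 and 2447 CPM in WT and 2194, 2316 and 2816 CPM in HET. Of 35 oxidative phosphorylation genes, 31 lay above WT in HET 3, and 24 and 24 below it in HET 1 and HET 2. Cox4i1, of complex IV, stood at 329, 338 and 323 CPM in WT and 344, 328 and 370.3 CPM in HET, where only HET 3 was clearly above WT. Atp5b, of the ATP synthase, exceeded WT in all 3 HET libraries, at 1074, 1133 and 1051 CPM in WT and 1181, 1227 and 1221 CPM in HET (log2 fold change 0.16, SE 0.09). Over all 3 HET libraries these shifts nearly cancelled, with medians of -0.06 and -0.10.

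**Figure D4:**
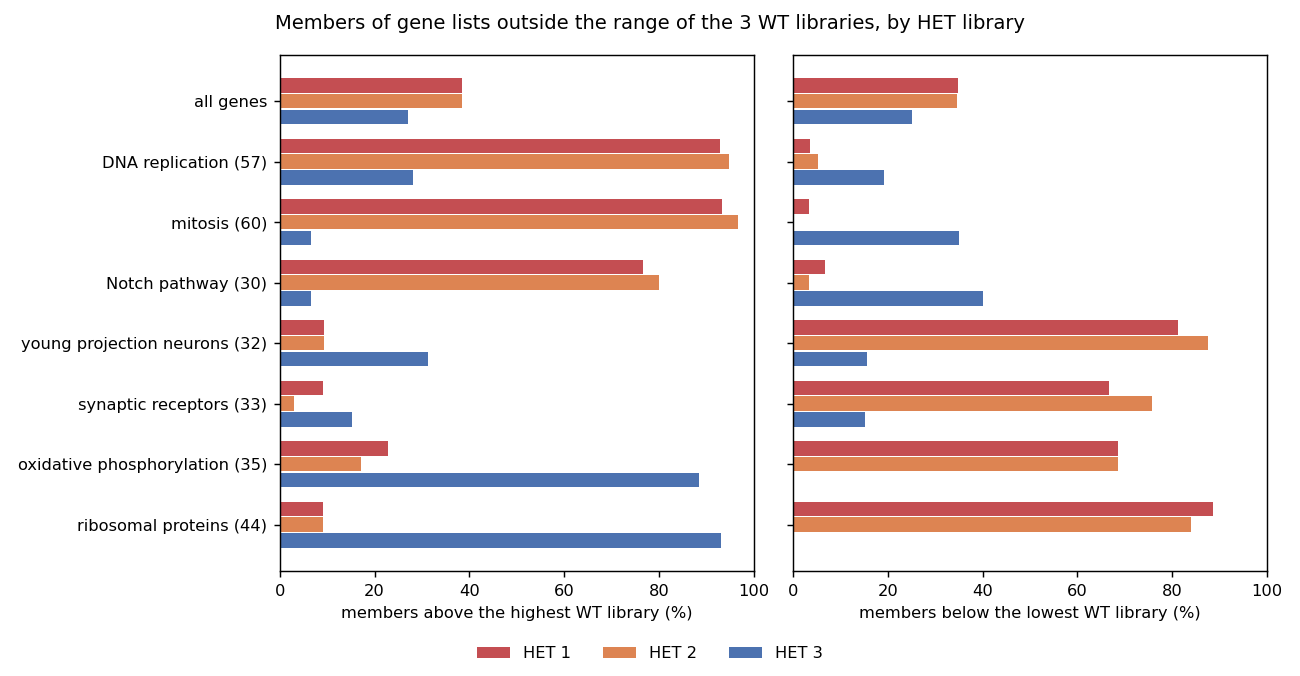
Share of the members of 7 gene lists, and of all genes, that lay above the highest (left) or below the lowest (right) of the 3 WT libraries in each HET library, in percent, with the number of genes tested in brackets. HET 1 and HET 2 were above WT on replication, mitosis and Notch genes and below on neuron, receptor, respiratory and ribosomal genes, and HET 3 was above WT on the last 2 groups (31 of 35 and 41 of 44).

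Of 28 glycolysis and hypoxia genes, 7 stood above WT in all 3 HET libraries, against 6.09% of all genes, and the median was 0.14. Gpi1, which interconverts glucose and fructose phosphates, stood at 255, 251 and 222 CPM in WT and 304, 299 and 293 CPM in HET (log2 fold change 0.30, SE 0.09). Gapdh stood at 2409.8, 2366 and 2481 CPM in WT and 2693, 2804 and 2955 CPM in HET (log2 fold change 0.22, SE 0.09), with HET 3 the highest, and Pkm, a pyruvate kinase, at 1799.7, 1877 and 1679 CPM in WT and 2373, 2254 and 1942 CPM in HET (log2 fold change 0.29, SE 0.11). Gapdh is often used to scale measurements, and its difference here was not past an adjusted threshold. Among 21 sterol genes, 17 were above zero (median 0.13), and Idi1, an isomerase of the pathway, exceeded WT in all 3 HET libraries, at 94.5, 108 and 97.3 CPM in WT and 180.1, 166 and 109 CPM in HET (log2 fold change 0.60, SE 0.18). Chaperone genes had 15 of 26 above zero (median 0.05), with Hsp90ab1, an abundant cytosolic chaperone, at 1740.5, 2004 and 1771 CPM in WT and 2729, 2750.4 and 1996 CPM in HET. Immediate early genes, which can respond to dissection, had 11 of 18 above zero (median 0.07).

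RNA from cells outside the cortical wall differed between libraries. Embryonic globins followed the HET split. Hba-x stood at 29.3, 30.4 and 31.1 CPM in WT and 142, 143 and 29.0 CPM in HET, and Hbb-y at 247, 337 and 407 CPM in WT and 797, 1027 and 337 CPM in HET. The adult globins Hba-a1 and Hba-a2, which are near-identical copies, are listed at 0 in all 6. The 8 red blood cell genes tested of 14 listed summed to 438, 509 and 589.7 CPM in WT and 1109, 1375 and 506 CPM in HET. HET 1 and HET 2, the libraries with more cell cycle and less neuron RNA, were thus also the libraries with the most globin RNA, and its part in the other differences was not tested. Meninges genes summed to 1289.8, 855 and 808 CPM in WT and 1239.8, 1656 and 1356 CPM in HET, so the groups overlapped. Of its 22 genes, 3 stood above WT in all 3 HET libraries (6.09% of all genes did), among them Col3a1, a fibrillar collagen, at 254, 159 and 167 CPM in WT and 266, 387 and 296 CPM in HET (log2 fold change 0.71, SE 0.21). Microglia genes summed to 196, 118 and 137 CPM in WT and 110.4, 125 and 177 CPM in HET, with the complement gene C1qb at 15.4, 9.93 and 14.5 CPM in WT and 8.17, 8.67 and 13.8 CPM in HET. Endothelium and pericyte genes summed to 639.8, 486 and 466 CPM in WT and 579.5, 648 and 547 CPM in HET.

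Choroid plexus and ventral genes varied within both groups. Ttr, the main transcript of the choroid plexus, stood at 1473, 0.426 and 1145 CPM in WT and 4.82, 225 and 422 CPM in HET, and that list summed to 2179, 160.2 and 1583 CPM in WT and 211, 607 and 772 CPM in HET. The spread within each group was wide, and WT 2 and HET 1 were the low ones. Genes of the subpallial interneuron lineage, cells that migrate into the cortex from below, had 18 of 24 below zero (median -0.56). Lhx6, the marker of MGE-born interneurons, stood at 17.9, 14.2 and 22.1 CPM in WT and 5.61, 4.26 and 20.7 CPM in HET, and Zeb2, which steers their migration and is also made in the cortex, at 259, 271 and 303 CPM in WT and 185, 177 and 241 CPM in HET (log2 fold change -0.47, SE 0.14). Lhx6 was low in HET 1 and HET 2 and within WT in HET 3, while Zeb2 lay below WT in all 3 HET libraries. The part of dissection in these levels was not tested.

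The share of genes with a low p differed between chromosomes, which was counted and not tested. Of 14694 placed genes, 104 (0.708%) had an unadjusted p under 0.01, against 13 of 1122 (1.16%) on chromosome 7, which carries Chd2, 15 of 571 (2.63%) on chromosome 13 and 6 of 510 (1.18%) on chromosome 14. Groups did not overlap in 11.4% of all placed genes and 12.2% of those on chromosome 7, and this share was higher on chromosomes 13 (15.1%), 6 (14.3%), X (13.1%) and 4 (12.3%). On chromosome 7 the largest share of 9 intervals lay 20 to 30 Mb from Chd2, toward higher coordinates, where 20 of 83 genes (24.1%) had groups that did not overlap, 15 higher and 5 lower in HET. That stretch holds Usp35, at 23.8 Mb from Chd2, Alg8 at 23.8 Mb, Myo7a at 24.5 Mb and Pgap2 at 28.7 Mb. Hddc3 and Adamtsl3 lie nearer, at 6.80 and 8.79 Mb.

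Genes of chromosome 7 were also read in the other tissues, though in the MGE genotype and sex coincide. Chrna7, a nicotinic receptor subunit 10.2 Mb from Chd2, stood at 13.3, 11.4 and 15.3 CPM in WT and 8.74, 7.85 and 9.65 CPM in HET (log2 fold change -0.61, SE 0.17), with log2 fold changes of 0.43 in the MGE and -0.01 in the hippocampus. Alg8 had 0.21 and -0.07 there, and Adamtsl3 -0.07 and -0.09. On chromosome 13, Tdp2 had 0.13 in the MGE and 0.19 in the hippocampus, and Sox4 0.0019 and -0.0031. The labels do not give the strain in which the Chd2 allele was made, so the part of flanking DNA in these values was not tested.

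**Figure D5:**
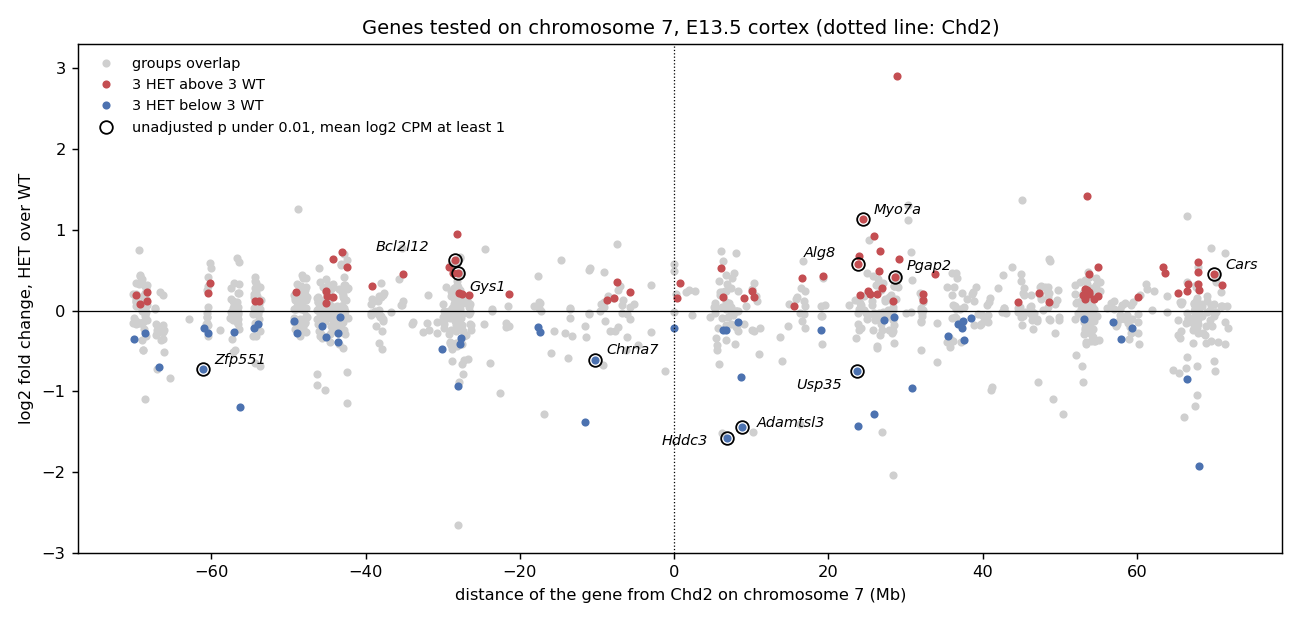
Log2 fold change in E13.5 cortex (HET over WT, y axis) of the 1122 tested genes of chromosome 7 by distance from Chd2 in Mb (x axis), coloured where the 3 HET libraries all lay above (red) or below (blue) the 3 WT libraries. The circled genes have an unadjusted p under 0.01 and reach 1 in mean log2 CPM, and 4 of these 11 lie between 20 and 30 Mb from Chd2.

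The cortex effect was tested against that of the other tissues in one fit of all 18 libraries. Within a contrast the genotype differences of the tissues share no library, but both contrasts use the same cortex libraries. Against the MGE, 0 of 16125 genes differed at an adjusted p under 0.05 (0.00%, edgeR). By Xist, all MGE WT libraries were female and all MGE HET libraries male, so this contrast cannot tell genotype from sex in the MGE. At an unadjusted p under 0.05 there were 1130 genes. The lowest adjusted p was 0.1, for Eomes and for Aldoc, a glycolytic enzyme, with differences of 2.48 and 1.12. Eomes had a log2 fold change of -2.60 in the MGE, where all 6 libraries lay between 0.162 and 2.14 CPM, beside similar levels of both groups in the cortex. Against the hippocampus, 2 genes differed (0.0124%). Without HET 3 of the cortex these counts were 1044 and 2791. Tmem163, a zinc transporter, stood at 6.65, 9.04 and 7.48 CPM in WT and 6.01, 9.56 and 9.24 CPM in HET, with a log2 fold change of 0.10 (SE 0.23) in the cortex and -3.23 in the hippocampus. Lpl, the lipoprotein lipase, stood at 39.0, 33.9 and 30.03 CPM in WT and 22.1, 24.7 and 25.1 CPM in HET (log2 fold change -0.52, SE 0.13), with 0.75 in the hippocampus and 0.42 in the MGE. On Lpl all 3 HET cortex libraries lay below WT.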

How the data were processed

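RNA-seq libraries of poly(A) RNA were deposited as one table of raw counts per gene symbol, per the file headers, and the 6 E13.5 cortex columns were assigned by name. In no stated order, the submitters' processing notes list the build mm10 and the tools TopHat2 2.1.1, Trimmomatic, DESeq2, SAMtools and FastQC. How reads were counted (program, annotation, strand) is not given in the sources used here. Of 24062 lines, 3700 held no count in any library and 27 symbols had been turned into dates.

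Genes were kept by filterByExpr (minimum count 10, minimum total 15), scaled by TMM and tested with edgeR's quasi-likelihood test (edgeR 4.0.16, R 4.3.3) on the 6 cortex libraries, with Benjamini-Hochberg adjustment over all genes tested and a threshold of 0.05. The standard error is the log2 fold change divided by the root of the F statistic. Levels per library are TMM-scaled CPM. Tissues were compared by interaction terms in a fit of all 18 libraries. Other settings were scaling by RLE or by the upper quartile, tests without the filter, DESeq2 1.42.0, limma-voom (limma 3.58.1), a replicate block, a covariate of Y-linked level, one fit of all libraries and each library left out. The scripts (Python 3.11.15, pandas 2.3.3) were tested on simulated data.

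The comparison and the 41 gene lists (1089 distinct genes) were chosen with earlier results of these data known. Named genes were the 12 of lowest p in each direction whose groups did not overlap and whose mean log2 CPM reached 1, the 3 of lowest p and the 3 of highest level in each list, the 5 of lowest p per contrast between tissues, and markers. Some genes that the rule names are not reported here. Other genes are said to be chosen after their values were seen. Counts of this depth leave the spread between libraries, and not counting error, as the main limit for genes above a few CPM.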

Additional observations from a re-analysis of the deposited data

Results flagged for a closer look

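The effect of the Chd2 genotype differed between cortex and hippocampus for 2 genes by a test of that difference. Tmem163 had a log2 difference of effects (cortex minus hippocampus) of 3.32 (adjusted p 9.9e-05, edgeR). The HET libraries were lower in the hippocampus, with a log2 fold change of -3.23, and mixed in the cortex, with 6.01, 9.56 and 9.24 CPM beside 6.65, 9.04 and 7.48 CPM in WT. Its adjusted p stayed under 0.05 in all 17 alternatives, between 5.32e-06 and 0.00738. Lpl had a difference of -1.27 (adjusted p 0.0176, edgeR), with a log2 fold change of -0.52 (SE 0.13) in the cortex and 0.75 in the hippocampus. It passed in 11 of 17 alternatives, with adjusted p between 0.000763 and 0.117. The Lpl effect in the cortex differed from that in the MGE by -0.95 (adjusted p 0.255).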

How the results depend on the processing

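The number of genes called in the cortex, 0, was 1 without the count filter (Hddc3), 11 with DESeq2 and 4 in one fit of all 18 libraries (Myo7a, Hddc3 and Tdp2 among them), and ranged from 0 to 4598 when each library was left out, with 4598 without HET 3 and 1 (Eno1b) without WT 1. RLE and upper-quartile scaling, limma-voom and the covariate of Y-linked level gave 0. Chd2 kept its direction in each leave-one-out fit (log2 -0.27 to -0.20), and passed without HET 3 (-0.22). The count for cortex against MGE, 0, ranged from 0 to 1044 over the libraries left out, with 1044 without cortex HET 3, 6 without MGE WT 1 and 3 without MGE HET 2. That for cortex against hippocampus, 2, ranged from 1 to 2791, with 2791 without cortex HET 3, 10 without cortex WT 1, 9 without cortex WT 2 and 4 without hippocampus HET 2. The count of groups without overlap in cortex was 1680 genes, 1646 with RLE and 1737 with upper-quartile scaling. Of the list medians under all alternatives, 474 moved by less than the spread and 100 by more. The cause of these shifts was not tested. Low levels limit what can be seen for genes of a few CPM, such as Lin28b.

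Replicate numbers are shared by the groups, but not every same-numbered pair deviated together (correlations of -0.1741, 0.1013 and 0.2119 over 12459 genes). Pairs with different numbers spanned a wider range, from -0.3693 to 0.4323, so these correlations cannot decide whether the numbers pair the samples. The labels do not say whether they do. With the number as a replicate block, 0 genes were called in the cortex, and 1625 had an unadjusted p under 0.05 against 1165 without it. The block left 1 gene called for cortex against hippocampus, Tmem163.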
